A study of Mus musculus with 30 samples.

Results

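The genes described here are the PGC-1 coactivators Ppargc1a and Ppargc1b, their nuclear receptor partner Esrra, and 5 genes of exercise metabolism: Nmrk2, Pdk4, Ucp3, Cpt1b and Slc25a48. They were taken by symbol from the gene count table, and all 8 were found among its 55426 genes. All 8 passed the filter on low counts in tendon, in bone and in both tissues together. RNA was sequenced from the Achilles tendon of mice and from the bone it attaches to, the calcaneus of the heel, to ask how muscle loading driven by light changes gene expression in both. In each tissue there were stimulated and unstimulated samples at day 5 and day 12 and naive samples at day 0, with 3 samples in each of the 10 groups.

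Every sample, the naive ones included, carries the genotype label Acta1,Ai32. Acta1 is the skeletal muscle actin gene, and Ai32 is a Cre-dependent allele of a light-gated ion channel that makes cells contract or fire when lit. Since all groups share this genotype, nothing here compares it with mice that lack it. Some titles call the stimulated samples stimulated controls, and they were taken as stimulated. Nothing in the labels ties the samples of a group to separate animals, and the p-values then speak only for the spread among these samples, part of which may be technical.

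Ppargc1a encodes PGC-1alpha, a coactivator that binds nuclear receptors and other transcription factors and raises the expression of mitochondrial genes. In skeletal muscle its gene is switched on by contraction through calcium, AMP kinase, p38 and cyclic AMP signals that act on MEF2 and CREB sites. Esrra encodes ERRalpha, an orphan nuclear receptor through which PGC-1alpha acts. Pdk4, Ucp3 and Cpt1b are known targets of PPAR and ERR receptors that shift muscle to burning fat. Nmrk2 encodes a muscle kinase that turns nicotinamide riboside into an NAD precursor, and Slc25a48 encodes a carrier of the inner mitochondrial membrane known to import choline.

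Libraries held 19.3 M to 44.6 M counts (M, 1000000). Unstimulated bone at 5 days had a pair of samples, 1 and 2, that were almost the same: 8.89% of 12913 genes differed between them beyond sampling noise, against at least 26.2% in the other pairs, so they were summed and counted as 1 sample, which left 29 libraries. A list of 36 muscle fibre genes, such as myosins and troponins, took 16.3% to 26.1% of all counts in tendon libraries, and no gene of the list was at 0 in any of them. In bone it took 0.859% to 5.32% in 13 libraries and 0.0405% in naive bone library 3, which stood apart. The defining genes of tendon fibroblasts (10 of 10) and of osteoblasts (10 of 10) were above 0 in every library of their own tissue. The tendon fibroblast list took 0.0493% to 0.465% of tendon counts and 0.229% to 0.643% of bone counts. Its share therefore did not set the tendon libraries apart from bone.

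The genes lie on mouse build GRCm38 as follows, from GENCODE M21 by gene ID. Ppargc1a (ENSMUSG00000029167) is at chr5:51454250-51567726 on the minus strand and Esrra (ENSMUSG00000024955) at chr19:6910977-6921813 on the minus strand. Nmrk2 (ENSMUSG00000004939) is at chr10:81198170-81202051 and Pdk4 (ENSMUSG00000019577) at chr6:5483351-5496309, both on the minus strand. Ucp3 (ENSMUSG00000032942) is at chr7:100472990-100486432 on the plus strand and Cpt1b (ENSMUSG00000078937) at chr15:89416405-89425863 on the minus strand. Slc25a48 (ENSMUSG00000021509) is at chr13:56438355-56474239 on the plus strand. Ppargc1b has the identifier ENSMUSG00000033871. All 8 are annotated as protein coding, and counts cover their exons.

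Of the 8 genes, 6 were matched to a RefSeq promoter (GRCm38.p6, 250 bases before to 50 after the start): all but Cpt1b and Ppargc1b. The promoters shown are those of the 4 genes that passed the test in at least 1 comparison, so that the motifs of known PGC-1alpha signals can be read beside the values. They are chr5:51567676-51567975 (minus), chr10:81201988-81202287 (minus), chr13:56438105-56438404 (plus) and chr7:100472741-100473040 (plus), each written 5' to 3' on the gene's own strand. Capitals mark matches, on either strand, to the nuclear receptor half-site AGGTCA or the cyclic AMP half-site TGACG.
Ppargc1a: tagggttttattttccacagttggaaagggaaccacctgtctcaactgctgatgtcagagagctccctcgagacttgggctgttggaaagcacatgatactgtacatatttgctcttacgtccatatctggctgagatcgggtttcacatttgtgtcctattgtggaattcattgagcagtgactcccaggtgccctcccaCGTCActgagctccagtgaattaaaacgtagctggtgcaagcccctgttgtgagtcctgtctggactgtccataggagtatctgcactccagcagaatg
Nmrk2: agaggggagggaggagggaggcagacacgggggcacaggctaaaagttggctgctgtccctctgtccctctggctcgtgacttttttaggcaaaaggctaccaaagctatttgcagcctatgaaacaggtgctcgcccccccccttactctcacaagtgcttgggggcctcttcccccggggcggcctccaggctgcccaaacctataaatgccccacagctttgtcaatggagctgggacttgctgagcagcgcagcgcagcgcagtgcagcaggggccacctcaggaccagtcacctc
Slc25a48: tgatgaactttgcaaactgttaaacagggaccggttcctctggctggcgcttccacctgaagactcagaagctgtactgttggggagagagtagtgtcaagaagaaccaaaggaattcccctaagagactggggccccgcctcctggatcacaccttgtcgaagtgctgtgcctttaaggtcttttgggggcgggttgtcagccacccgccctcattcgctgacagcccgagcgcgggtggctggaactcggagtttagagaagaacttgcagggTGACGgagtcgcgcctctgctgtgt
Ucp3: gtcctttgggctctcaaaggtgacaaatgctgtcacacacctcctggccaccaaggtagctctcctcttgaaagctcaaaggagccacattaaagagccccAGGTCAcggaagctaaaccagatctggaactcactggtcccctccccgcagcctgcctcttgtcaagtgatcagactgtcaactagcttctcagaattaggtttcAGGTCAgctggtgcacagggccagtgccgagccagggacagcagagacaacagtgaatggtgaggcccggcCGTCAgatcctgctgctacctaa
Ppargc1a had 1 cyclic AMP half-site at -49 to -45 from its start, Slc25a48 had 1 at 26 to 30, and Ucp3 had 1 at 28 to 32. That half-site was in 20.8% of all 32817 promoters of this length. Ucp3 had 2 nuclear receptor half-sites, at -149 to -144 and at -44 to -39, a motif found in 16.3% of all promoters. The Nmrk2, Pdk4 and Esrra windows held neither motif. The longer ERR element TCAAGGTCA (0.424% of all promoters, and it contains the nuclear receptor half-site), the full cyclic AMP element TGACGTCA (1.79%, which contains the half-site), the FOXO motif GTAAACA (3.65%) and the MEF2 consensus (3.19%) had no match in any of the 6 windows. These matches describe letters in the window and show no binding.

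Set per kilobase of exon, the genes spanned a wide range of levels in tendon. Median levels in RPKM (CPM per kilobase of exon) over the 15 tendon libraries were 170.0 for Pdk4 (33.7 to 342), 74.8 for Cpt1b (44.2 to 94.7), 50.9 for Ucp3 (16.5 to 81.6) and 22.6 for Esrra (15.7 to 25.4). Nmrk2 followed at 9.54 (6.19 to 43.2), Ppargc1a at 2.77 (1.52 to 11.9), Ppargc1b at 2.64 (1.98 to 3.59) and Slc25a48 at 0.103 (0.0517 to 0.855). Neighbours in this order overlapped, except that every library had less Slc25a48 than any had Ppargc1b. In the 14 bone libraries the order of median RPKM was Pdk4 at 14.95, Esrra at 11.0, Cpt1b at 9.68, Ucp3 at 5.94, Nmrk2 at 0.967, Ppargc1b at 0.908, Ppargc1a at 0.474 and Slc25a48 at 0.0745. Bone and tendon libraries were scaled separately, so these levels set the order of genes within a tissue.

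In tendon at 12 days, the coactivator gene Ppargc1a, the nicotinamide riboside kinase gene Nmrk2 and the carrier gene Slc25a48 were 3, 3.56 and 4.78 times higher in stimulated than in unstimulated samples. The other coactivator, Ppargc1b, its partner receptor gene Esrra and the fat oxidation genes Cpt1b, Pdk4 and Ucp3 did not pass the test. That is 3 of 8 genes, all higher, where 0.345% of 17108 tested genes were called in either direction. The 8 genes were chosen with earlier results of these data known, so setting these shares side by side does not test the group. A change in RNA per cell and a change in the number of cells of a type cannot be told apart in these bulk tissues.

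Ppargc1a had 78.2, 42.6 and 27.0 counts per 1000000 (CPM, over the scaled library total) in stimulated tendons at 12 days, against 16.1, 14.7 and 18.3 CPM in unstimulated tendons. Each stimulated library was above every unstimulated one, but the stimulated ones differed among themselves by more than the unstimulated ones did. The log2 fold change was 1.59 ± 0.30 (SE; edgeR quasi-likelihood test, adjusted p = 0.0482). Ppargc1b, whose product shares much of the work of PGC-1alpha but is not known for the same response to contraction, had 10.5, 11.3 and 10.6 CPM in stimulated tendons and 9.46, 10.5 and 12.4 CPM in unstimulated tendons. Its values overlapped, with a log2 fold change of 0.01 ± 0.18 (adjusted p = 0.997). Esrra had 107, 104 and 81.6 CPM in stimulated tendons and 109, 99.2 and 107 CPM in unstimulated tendons, which also overlapped (log2 fold change -0.11 ± 0.14, adjusted p = 0.882).

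Nmrk2 had 39.6, 23.8 and 80.1 CPM in stimulated tendons at 12 days, against 11.5, 15 and 13.9 CPM in unstimulated tendons (log2 fold change 1.83 ± 0.34, adjusted p = 0.0428). The groups did not overlap, and stimulated library 3 was the highest for Nmrk2 but the lowest for Ppargc1a. Slc25a48 was a low gene: 58, 33 and 94 counts were found in the stimulated libraries and 8, 19 and 10 in the unstimulated ones. As levels these were 2.74, 1.20 and 2.88 CPM in stimulated tendons and 0.289, 0.805 and 0.348 CPM in unstimulated tendons (log2 fold change 2.26 ± 0.40, adjusted p = 0.0301). The lowest stimulated library still lay above the highest unstimulated one.

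The fuel genes had wide spreads within groups. Pdk4, whose kinase blocks pyruvate dehydrogenase and so spares glucose, had 467, 905 and 695 CPM in stimulated tendons and 244, 608 and 377 CPM in unstimulated tendons (log2 fold change 0.75 ± 0.56, adjusted p = 0.705). Ucp3, a mitochondrial carrier of muscle, had 159, 256 and 152 CPM in stimulated tendons and 95.9, 215 and 135 CPM in unstimulated tendons (0.35 ± 0.36, adjusted p = 0.823). Both groups overlapped for each gene, and library 2 was the highest of its group for both genes in stimulated and in unstimulated tendons. Cpt1b, the muscle carnitine palmitoyltransferase that lets long fatty acids into mitochondria, had 259, 252 and 175 CPM in stimulated tendons and 258, 239 and 241 CPM in unstimulated tendons (log2 fold change -0.10 ± 0.23, adjusted p = 0.935).

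**Figure D1:**
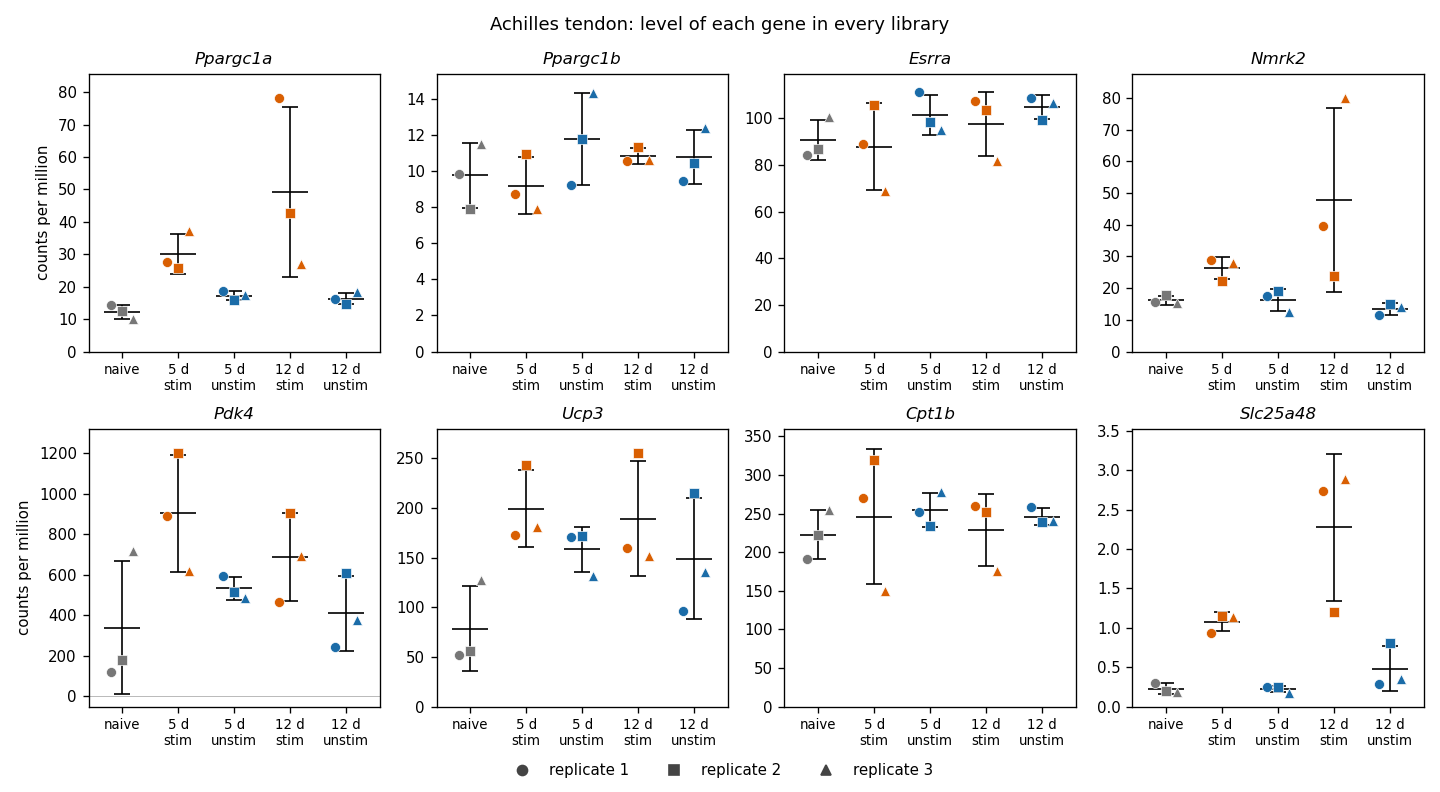
CPM of the 8 genes in each Achilles tendon library, by group (naive; then stimulated beside unstimulated at 5 and at 12 days). Points are libraries with the marker giving the replicate number, and bars are the mean ± SD (n = 3). Ppargc1a, Nmrk2 and Slc25a48 lay higher in stimulated than in unstimulated tendons at 12 days, with 27.0 to 78.2 against 14.7 to 18.3 CPM for Ppargc1a, while Esrra, Ppargc1b and Cpt1b overlapped.

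These 3 calls lay close to the threshold. Ppargc1a lost its call without unstimulated library 1, 2 or 3 (log2 fold change 1.58, 1.51 and 1.67, adjusted p = 0.187, 0.193 and 0.199) and without stimulated library 1 (1.07, adjusted p = 0.0777). Nmrk2 lost its call without unstimulated library 1, 2 or 3 (1.73, 1.91 and 1.86, adjusted p = 0.196, 0.136 and 0.205), without stimulated library 1 (1.93, 0.0833) and without stimulated library 3 (1.23, 0.0831). Slc25a48 lost its call without unstimulated library 1 or 3 (1.995 and 2.07, adjusted p = 0.15 and 0.205) and without stimulated library 1 or 3 (2.09 and 2.04, adjusted p = 0.0929 and 0.149). Fitted on only the 6 libraries compared, the log2 fold changes were 1.57, 1.82 and 2.25 for Ppargc1a, Nmrk2 and Slc25a48, and the adjusted p-values were 0.358, 0.358 and 0.284.

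The muscle content of the tendon libraries overlapped between the groups at 12 days. The muscle fibre list took 25.4%, 22.6% and 24.3% of counts in stimulated libraries and 24.9%, 26.1% and 25.2% in unstimulated libraries. Of its 36 genes, 13 had a higher fitted level in stimulated tendons, and 0 passed edgeR's test (1 at an unadjusted p under 0.05, and 1 by DESeq2). Per 1000000 muscle fibre counts, Ppargc1a had 266, 173 and 103 counts in stimulated tendons and 61.5, 50.2 and 68.7 in unstimulated tendons. Nmrk2 had 135, 96.7 and 306 in stimulated tendons and 43.8, 51.4 and 52.3 in unstimulated tendons on that scale. Slc25a48 had 9.32, 4.87 and 11.0 in stimulated tendons and 1.10, 2.76 and 1.31 in unstimulated tendons. Scaled to muscle fibre counts in the fit, the log2 fold changes were 1.59, 1.87 and 2.29, about as large as before, with adjusted p = 0.0609, 0.0551 and 0.0342 for Ppargc1a, Nmrk2 and Slc25a48.

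With the mean log2 level of the muscle fibre genes as a covariate, the log2 fold change was 1.60 for Ppargc1a, 1.29 for Nmrk2 and 1.85 for Slc25a48 (adjusted p = 0.183, 0.216 and 0.157). Genes of muscle progenitors and regeneration were uneven among the stimulated libraries. Their 12 genes, such as Myog and Myh3, took 0.0356%, 0.0283% and 0.203% of counts in stimulated libraries and 0.035%, 0.0205% and 0.024% in unstimulated libraries. All 12 had a higher fitted level in stimulated tendons, 0 passed edgeR's test (5 at an unadjusted p under 0.05, and 4 by DESeq2), and none was at 0 in any tendon library. The library with the most of them, stimulated library 3, also had the most Nmrk2 and Slc25a48 and the least Ppargc1a, and their part in the result was not tested beyond leaving it out.

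**Figure D2:**
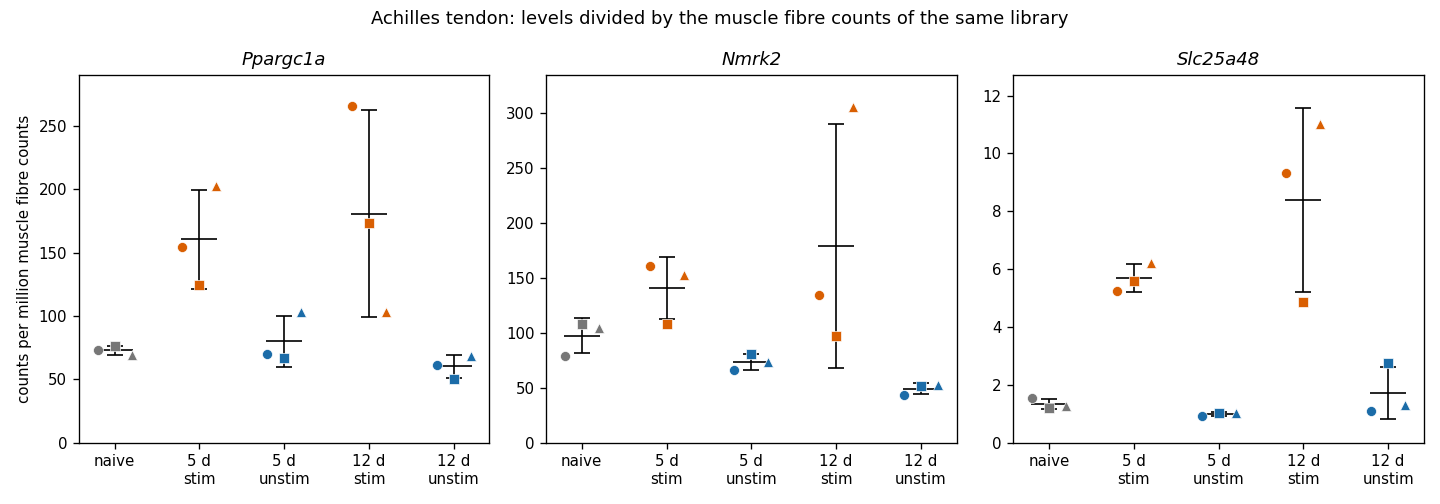
Counts of Ppargc1a, Nmrk2 and Slc25a48 per 1000000 muscle fibre counts of the same tendon library, by group, with points for libraries and bars for the mean ± SD (n = 3). At 12 days Ppargc1a averaged 181 in stimulated and 60.1 in unstimulated tendons, and at 5 days 160.4 and 79.8.

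In tendon at 5 days Slc25a48 and Ppargc1a had the largest fold changes of the 8 genes, but 0 of 8 passed edgeR's test (2 at an unadjusted p under 0.05, Ppargc1a and Slc25a48, and 1 by DESeq2, Slc25a48), beside 0.0585% of all genes tested. Ppargc1a had 27.6, 25.7 and 37.1 CPM in stimulated tendons and 18.5, 15.8 and 17.5 CPM in unstimulated tendons. The groups did not overlap, but the log2 fold change of 0.81 ± 0.30 had an adjusted p of 0.488. Nmrk2 had 28.8, 22.3 and 28.0 CPM in stimulated tendons and 17.5, 19.1 and 12.4 CPM in unstimulated tendons (0.69 ± 0.33, adjusted p = 0.628). Slc25a48 had 28, 38 and 46 counts in stimulated libraries and 6, 7 and 6 in unstimulated libraries, which did not overlap. Its log2 fold change of 2.29 ± 0.44 was as large as at 12 days (adjusted p = 0.0946 by edgeR, and 0.0032 by DESeq2).

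Pdk4 had 890, 1200.3 and 620.1 CPM in stimulated tendons at 5 days and 597, 514 and 487 CPM in unstimulated tendons (log2 fold change 0.76 ± 0.56, adjusted p = 0.82). Ucp3 had 173, 244 and 181 CPM in stimulated tendons and 171, 172 and 132 CPM in unstimulated tendons (0.33 ± 0.36, adjusted p = 0.91). For both genes the lowest stimulated value was just above the highest unstimulated one. Cpt1b, at 270.0, 319 and 149 CPM in stimulated tendons and 252, 233 and 277 CPM in unstimulated tendons, overlapped (-0.05 ± 0.22, adjusted p = 0.986). Ppargc1b averaged 9.19 ± 1.57 CPM in stimulated and 11.8 ± 2.54 CPM in unstimulated tendons, and Esrra 87.8 ± 18.5 CPM in stimulated and 101 ± 8.58 CPM in unstimulated tendons (SD, n = 3 each). Their log2 fold changes were -0.36 ± 0.18 and -0.21 ± 0.14 (adjusted p = 0.637 and 0.79).

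At 5 days the muscle fibre list took 19.4% to 20.8% of counts in stimulated libraries and 18.6% to 25.5% in unstimulated libraries. Scaled to muscle fibre counts, the log2 fold changes were 1.01 for Ppargc1a, 0.94 for Nmrk2 and 2.50 for Slc25a48 (adjusted p = 0.279, 0.423 and 0.0554), with the median of all genes moved to 0.193. The 12 regeneration genes took 0.0346% to 0.0729% of counts in stimulated libraries and 0.0268% to 0.0927% in unstimulated libraries, with 0 called by edgeR (3 at an unadjusted p under 0.05, and 0 by DESeq2). Adipocyte genes took 0.0666% to 0.130% of counts in stimulated and 0.0477% to 0.144% in unstimulated libraries, with a higher fitted level in stimulated tendons for 9 of 9 tested genes and 0 called (0 at an unadjusted p under 0.05 and 0 by DESeq2). Ucp1, the defining gene of brown fat, was at 0 in some tendon libraries. Osteoblast genes took 0.00344% to 0.00485% in stimulated and 0.00497% to 0.0180% in unstimulated libraries. Of the 10 osteoblast genes 0 had a higher fitted level in stimulated tendons and 0 were called (8 at an unadjusted p under 0.05 and 4 by DESeq2), and Bglap and Bglap2 were at 0 in some libraries. The part of these cells in the values at 5 days was not tested.

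Whether the effect of stimulation changed between the days was tested directly. In tendon the effect at 12 days minus that at 5 days was 0.78 ± 0.42 on the log2 scale for Ppargc1a, 1.14 ± 0.47 for Nmrk2 and -0.03 ± 0.44 for Slc25a48. None of the 8 genes passed edgeR's test (adjusted p = 1 for each, 1 at an unadjusted p under 0.05, which was Nmrk2, and 0 by DESeq2), and 0% of all genes did (699 at an unadjusted p under 0.05 and 12 by DESeq2). For Pdk4, Ucp3 and Cpt1b the difference was -0.01 ± 0.79, 0.01 ± 0.51 and -0.06 ± 0.32.

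**Figure D3:**
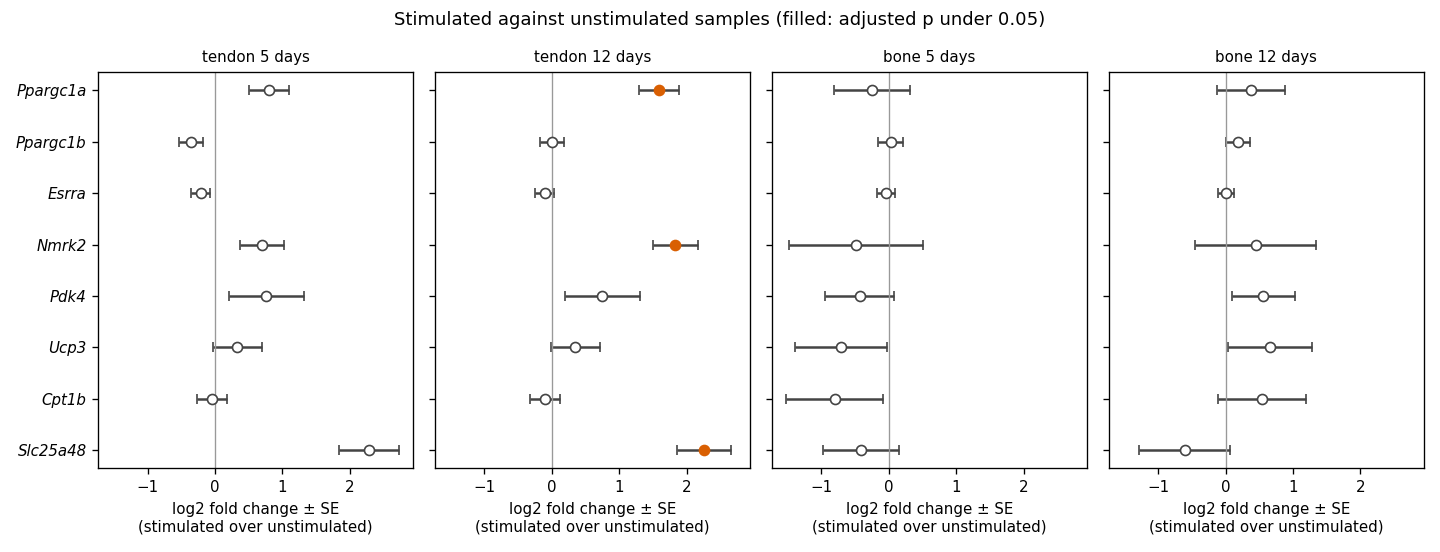
Log2 fold change ± SE of stimulated over unstimulated samples for the 8 genes in tendon and bone at 5 and 12 days, from edgeR. Filled points have an adjusted p under 0.05: Ppargc1a (1.59), Nmrk2 (1.83) and Slc25a48 (2.26) in tendon at 12 days.

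Compared with naive tendons, more of the genes were higher after stimulation, and Ucp3 joined them. Ucp3 also had a positive log2 fold change over naive in unstimulated tendons, without passing edgeR's test. These comparisons share their naive samples with each other and their stimulated samples with those already given. In stimulated tendons at 12 days 4 of 8 genes rose (24.4% of all genes were called): Ppargc1a, Nmrk2, Slc25a48 and Ucp3. In stimulated tendons at 5 days 2 of 8 did (2.29% of all genes), Ppargc1a and Slc25a48, and DESeq2 also called Ucp3. Markers of other cells moved as well in stimulated tendons at 12 days against naive. Of 12 muscle progenitor and regeneration genes 6 were called higher and 0 lower (median log2 fold change 1.07), with shares of 0.0283% to 0.203% in stimulated and 0.0322% to 0.0422% in naive libraries. Tendon fibroblast genes had 0 higher and 5 lower of 10 (median -1.62), with 0.0493% to 0.185% in stimulated and 0.263% to 0.465% in naive libraries. Osteoblast genes had 5 lower of 10, osteoclast genes 5 lower of 9, erythroid genes 5 lower of 5 and macrophage genes 3 lower of 9, with 0 higher in each. Of the 36 muscle fibre genes 18 were called higher and 7 lower. The part of cells other than muscle fibres in the members' differences from naive was not tested.

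Ppargc1a had 14.3, 12.5 and 10.02 CPM in naive tendons, below every library of the other tendon groups. Its log2 fold change over naive was 1.997 ± 0.30 in stimulated tendons at 12 days and 1.29 ± 0.30 at 5 days (adjusted p = 0.00244 and 0.0443). The 5-day call was lost without any 1 of the 6 libraries: without naive library 1, 2 or 3 the log2 fold change was 1.42, 1.305 and 1.17, and without stimulated library 1, 2 or 3 it was 1.35, 1.40 and 1.11, with adjusted p-values of 0.0808 to 0.186. In unstimulated tendons the log2 fold change of Ppargc1a over naive was 0.49 ± 0.30 at 5 days and 0.41 ± 0.30 at 12 days (adjusted p = 0.542 and 0.343).

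Nmrk2 had 15.6, 17.7 and 15.2 CPM in naive tendons, and its log2 fold change over them was 1.57 ± 0.33 in stimulated tendons at 12 days (adjusted p = 0.00771) and 0.71 ± 0.33 at 5 days (adjusted p = 0.258). Unstimulated tendons did not differ from naive ones past the threshold for Nmrk2 (0.01 ± 0.33 at 5 days and -0.26 ± 0.33 at 12 days, adjusted p = 0.994 and 0.604). Slc25a48 had 14, 8 and 7 counts in naive libraries, and its log2 fold change over them was 3.28 ± 0.41 in stimulated tendons at 12 days and 2.21 ± 0.42 at 5 days (adjusted p = 0.000913 and 0.0227). The 5-day call of Slc25a48 was lost without naive library 2 or 3 (2.11 and 2.08, adjusted p = 0.0652 and 0.111) and without stimulated library 1 or 2 (2.29 and 2.16, adjusted p = 0.0813 and 0.0694). In unstimulated tendons its log2 fold change over naive was -0.08 ± 0.49 at 5 days and 1.02 ± 0.45 at 12 days (adjusted p = 0.965 and 0.123).

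Ucp3 had 51.8, 55.7 and 128 CPM in naive tendons, and naive library 3 was also far above the other naive libraries for Pdk4, with 717 CPM against 118 and 180 CPM. The log2 fold change of Ucp3 over naive was 1.27 ± 0.37 in stimulated tendons at 12 days (adjusted p = 0.0271) and 1.35 ± 0.37 at 5 days (adjusted p = 0.0782, and 0.00443 by DESeq2). The 12-day call was lost without naive library 1 or 2 (1.045 and 1.08, adjusted p = 0.083 and 0.0907) and without stimulated library 1 or 2 (1.36 and 0.98, adjusted p = 0.0572 and 0.081). It was lost also with no count filter (1.25, adjusted p = 0.0788), on only the libraries compared (1.27, adjusted p = 0.0687) and when scaled to muscle fibre counts (0.55, adjusted p = 0.224), where the median of all genes was -0.69. In unstimulated tendons the log2 fold change of Ucp3 over naive was 1.01 ± 0.36 at 5 days and 0.92 ± 0.36 at 12 days. These did not pass edgeR's test (adjusted p = 0.399 and 0.09), and DESeq2 called the 12-day one. For Pdk4 the log2 fold change over naive was 1.42 ± 0.57 at 5 days and 1.03 ± 0.56 at 12 days in stimulated tendons (adjusted p = 0.2 and 0.195). Without naive library 3 these values were 2.60 at 5 days and 2.21 at 12 days (adjusted p = 0.0478 and 0.0167).

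In the main fit Esrra, Ppargc1b and Cpt1b stayed below the threshold against naive tendons too. Their log2 fold changes were between -0.09 and 0.15 in stimulated tendons and between 0.14 and 0.27 in unstimulated tendons. In unstimulated tendons 0 of 8 genes passed edgeR's test at 5 days (0.0351% of all genes were called, 1 of the 8 had an unadjusted p under 0.05 and 0 passed by DESeq2). At 12 days 0 of 8 passed (18.8% of all genes, 2 of the 8 at an unadjusted p under 0.05 and 1, Ucp3, by DESeq2). Muscle fibre shares were 22.6% to 25.4% in stimulated and 24.9% to 26.1% in unstimulated tendons at 12 days, against 16.3% to 20.4% in naive tendons. Scaled to muscle fibre counts, the log2 fold changes of stimulated over naive tendons at 12 days were 1.31 for Ppargc1a, 0.88 for Nmrk2 and 2.63 for Slc25a48 (adjusted p = 0.00349, 0.0256 and 0.00179). In that comparison the scaling moved the median of all genes to -0.69. It called 11200 of 17108 genes, 2% of them higher. Esrra (-0.59) and Cpt1b (-0.66) passed the threshold there as lower, both smaller changes than that shift. In unstimulated tendons at 12 days Esrra did too (-0.51), with the median of all genes at -0.74. In stimulated tendons at 5 days the scaled values were 1.14 for Ppargc1a and 2.06 for Slc25a48 (adjusted p = 0.128 and 0.0496). The median of all genes was then -0.17, and 33 genes were called.

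In bone no gene of the 8 passed edgeR's test between stimulated and unstimulated samples at 5 days (0% of 18851 genes were called, 1522 of them had an unadjusted p under 0.05 and 49 passed by DESeq2, with 0 of the 8 at an unadjusted p under 0.05 and 0 by DESeq2). At 12 days 0 of 8 passed either (0.0371% of all genes, 0 at an unadjusted p under 0.05 and 0 by DESeq2). Ppargc1a had 3.80, 3.19 and 4.88 CPM in stimulated bones at 12 days and 3.39, 2.40 and 3.36 CPM in unstimulated bones, which overlapped (log2 fold change 0.38 ± 0.50, adjusted p = 0.776). At 5 days it had 3.71, 1.74 and 1.54 CPM in stimulated bones and 2.50 and 3.06 CPM in unstimulated bones (-0.24 ± 0.56, adjusted p = 0.929). Nmrk2 had 1.23, 1.89 and 3.95 CPM in stimulated bones at 12 days and 1.69, 0.762 and 2.87 CPM in unstimulated bones, which overlapped (0.44 ± 0.90, adjusted p = 0.861). Slc25a48 had 4, 1 and 5 counts in stimulated and 7, 7 and 4 in unstimulated bone libraries at 12 days (-0.61 ± 0.67, adjusted p = 0.725).

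The fuel genes in bone went with stimulation in opposite directions at the 2 days, without passing the test. At 12 days the log2 fold changes of Pdk4, Ucp3 and Cpt1b were 0.56 ± 0.47, 0.66 ± 0.62 and 0.54 ± 0.65, and at 5 days -0.43 ± 0.51, -0.70 ± 0.68 and -0.80 ± 0.72. The muscle fibre share had the same pattern: 1.69%, 3.47% and 5.32% in stimulated and 2.32%, 1.19% and 2.35% in unstimulated bones at 12 days, and 3.19%, 0.963% and 0.859% in stimulated and 2.77% and 2.96% in unstimulated bones at 5 days. Of the 36 muscle fibre genes 33 had a higher fitted level in stimulated bones at 12 days and 0 had one at 5 days. With the muscle level as a covariate the log2 fold changes of Pdk4, Ucp3 and Cpt1b were 0.43, 0.33 and 0.25 at 12 days (adjusted p = 0.608, 0.637 and 0.708) and -0.27, -0.30 and -0.39 at 5 days (adjusted p = 0.919, 0.887 and 0.825). For the 8 genes the 12-day effect minus the 5-day effect passed edgeR's test for none (0 at an unadjusted p under 0.05 and 0 by DESeq2), and 0% of all genes passed (2008 at an unadjusted p under 0.05 and 60 by DESeq2). The differences were 1.37 ± 0.92 for Ucp3 and 1.34 ± 0.97 for Cpt1b. Ppargc1b and Esrra had log2 fold changes close to 0: 0.03 ± 0.19 and -0.04 ± 0.13 at 5 days, and 0.18 ± 0.18 and 0.01 ± 0.12 at 12 days.

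**Figure D4:**
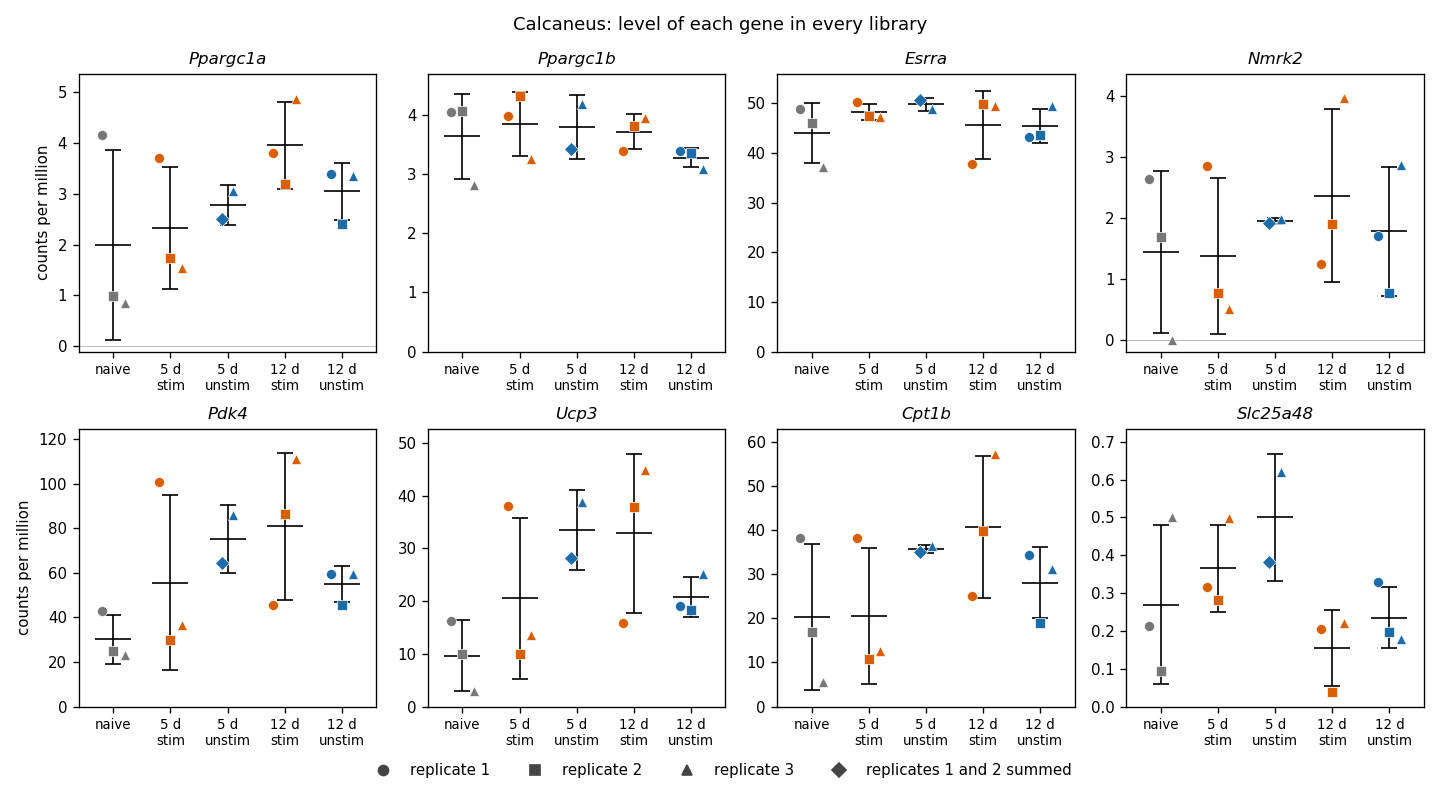
CPM of the 8 genes in each calcaneus library, by group, drawn as for tendon (n = 3, or 2 in the unstimulated group at 5 days, where replicates 1 and 2 were summed). Stimulated and unstimulated libraries overlapped for Ppargc1a, Nmrk2, Pdk4, Ucp3 and Cpt1b at both days, and Esrra stayed between 37.2 and 50.7 CPM in all 14 libraries.

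Against naive bones none of the 8 genes passed edgeR's test in any group. The background was 0.228% of all genes in stimulated bones at 5 days (0 of 8 at an unadjusted p under 0.05 and 0 by DESeq2) and 4.54% at 12 days (2 of 8, Pdk4 and Ucp3, and 1 by DESeq2, Pdk4). In unstimulated bones it was 0.435% at 5 days (2 of 8, Pdk4 and Ucp3, and 0 by DESeq2) and 21.8% at 12 days (0 and 0). Pdk4 had 45.6, 86.2 and 111 CPM in stimulated bones at 12 days against 42.9, 24.8 and 23.0 CPM in naive bones (log2 fold change 1.42 ± 0.48, adjusted p = 0.108). Ucp3 had 15.9, 37.8 and 44.9 CPM in stimulated bones at 12 days, against 16.3, 9.88 and 2.86 CPM in naive bones (1.75 ± 0.65, adjusted p = 0.139). The muscle fibre list took 1.69%, 3.47% and 5.32% of counts in stimulated bones at 12 days and 2.50%, 1.38% and 0.0405% in naive bones, and 33 of its 36 genes had a higher fitted level in stimulated bones (median log2 fold change 1.35, 0 called by edgeR, 3 at an unadjusted p under 0.05 and 2 by DESeq2). With the muscle level as a covariate the log2 fold change over naive was 0.87 for Pdk4 and 0.82 for Ucp3 (adjusted p = 0.391 and 0.32). Ppargc1a in naive bones was 4.15 CPM in library 1 and 0.983 and 0.853 CPM in the others. Without naive library 1, which leaves a naive group of 2 libraries with the nearly muscle-free library 3 as 1 of them, its log2 fold change over naive was 2.10 in stimulated and 1.72 in unstimulated bones at 12 days (adjusted p = 0.0185 and 0.0123), against 0.94 ± 0.52 and 0.56 ± 0.52 with it (adjusted p = 0.297 and 0.475). With all libraries and the muscle level as a covariate these were 0.34 and 0.13 (adjusted p = 0.744 and 0.866). Nmrk2 had 0 counts in naive library 3, which allows a level of up to 0.144 CPM (3 counts of the library total, counting error only).

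The tissues were set against each other at 12 days in one fit over all libraries. The stimulation effect in tendon minus that in bone was 2.82 ± 0.77 on the log2 scale for Slc25a48 (adjusted p = 0.134 by edgeR, and 0.0456 by DESeq2). Without stimulated tendon library 2 that difference was 3.13 (adjusted p = 0.0298). For Ppargc1a it was 1.14 ± 0.59 (adjusted p = 0.495) and for Nmrk2 1.29 ± 0.87 (adjusted p = 0.644). So 0 of 8 genes passed edgeR's test of a difference between tissues (1 at an unadjusted p under 0.05, Slc25a48, and 1 by DESeq2), beside 0.222% of 19845 genes. The calls in tendon are therefore not shown to be particular to tendon.

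Levels of most of these genes in bone followed the muscle RNA content of the library. Over the 14 bone libraries the log2(CPM + 0.1) of Cpt1b and the mean log2 level of the muscle fibre genes had a Pearson r of 0.90 and a Spearman rho of 0.93. Both had a permutation p of 1e-05, the smallest that 100000 permutations can give (adjusted p = 5.33e-05 and 0.00016 over 16 relations, 8 genes in 2 tissues). Leaving out the 2 libraries farthest from the median muscle level (naive library 3 and stimulated library 3 at 5 days) gave r = 0.97. For Ucp3 r was 0.90, rho 0.91 and r without those libraries 0.88 (permutation p = 2e-05 and 4e-05, adjusted p = 8e-05 and 0.000213). Nmrk2 had r = 0.95, rho 0.80 and r = 0.85 without them (permutation p = 1e-05 and 0.00089, adjusted p = 5.33e-05 and 0.00356), and Pdk4 r = 0.725, rho 0.91 and r = 0.87 (permutation p = 1e-05 and 2e-05, adjusted p = 5.33e-05 and 0.00016).

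Ppargc1a had a looser relation in bone, with r = 0.77, rho 0.66 and r = 0.67 without the 2 libraries (permutation p = 0.00024 and 0.0119, adjusted p = 0.000768 and 0.0274). Esrra had r = 0.69, rho 0.68 and r = 0.50 without them (permutation p = 0.00994 and 0.00887, adjusted p = 0.0227 and 0.0274). The relation of Ppargc1b, r = 0.57 with rho 0.37 (permutation p = 0.0243 and 0.198, adjusted p = 0.0432 and 0.288), rested on those libraries, since r was -0.04 without them. Slc25a48 had r = -0.35 and rho -0.09 (permutation p = 0.222 and 0.75, adjusted p = 0.297 and 0.857). These libraries share their groups, and the permutations take no account of that.

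In tendon, where muscle RNA varied little, the genes differed. Over the 15 tendon libraries Cpt1b had r = 0.72 and rho 0.64 with the muscle level (permutation p = 0.0025 and 0.012, adjusted p = 0.00667 and 0.0274), and r = 0.56 without the 2 farthest libraries, stimulated library 3 at 12 days and stimulated library 2 at 5 days. Nmrk2 had r = -0.64 and rho -0.39 (permutation p = 0.0119 and 0.149, adjusted p = 0.0238 and 0.238) and r = -0.42 without them. Slc25a48 had r = -0.56 and rho -0.53 (permutation p = 0.03 and 0.0462, adjusted p = 0.0481 and 0.0925) and r = -0.57 without them. Ppargc1a had r = -0.29 (adjusted p = 0.366) and Esrra r = 0.47 (adjusted p = 0.111), by permutation. The mean log2 level weighs weak and strong muscle genes alike, so it need not rank libraries as the muscle share does.

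**Figure D5:**
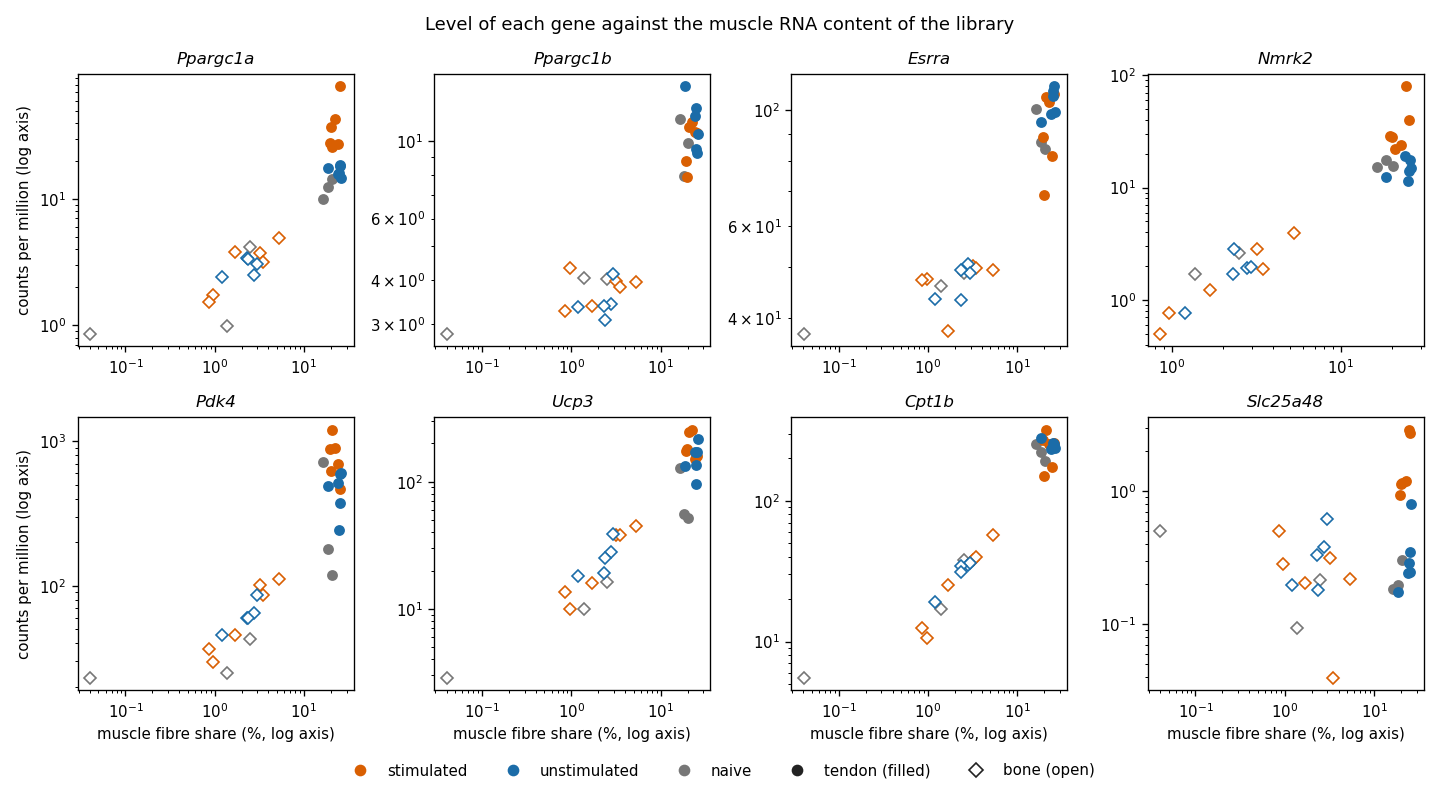
CPM of each gene against the share of counts in the 36 muscle fibre genes, both on log axes, for 15 tendon and 14 bone libraries (CPM scaled within each tissue; naive bone library 3 has no Nmrk2 count and is not drawn there). In bone, Nmrk2, Pdk4, Ucp3 and Cpt1b climb with the share, while Esrra (37.2 to 50.7 CPM) and Ppargc1b (2.81 to 4.32 CPM) vary little.

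Divided by the muscle fibre counts of the same library, all genes but Esrra had overlapping ranges in tendon and bone. Cpt1b had a median of 983 counts per 1000000 muscle fibre counts in tendon (669 to 1757, 15 libraries) and 1258 in bone (1066 to 1606, 13 libraries without naive library 3). Nmrk2 had 96.7 in tendon (43.8 to 306) and 73.6 in bone (55.8 to 123). Pdk4 had 2248 in tendon (601 to 5836) and 2552 in bone (1736 to 4212), and Ucp3 had 724 in tendon (263 to 1186) and 1078 in bone (659.8 to 1570). These 4 genes had overlapping ranges in the tissues. Esrra had 419 in tendon (312 to 692) and 1975 in bone (918 to 5457), with no overlap. Ppargc1b had 46.6 in tendon (34.8 to 84.8) and 138 in bone (73.6 to 475), Ppargc1a 76.5 in tendon (50.2 to 266) and 137 in bone (71.0 to 227), and Slc25a48 1.54 in tendon (0.924 to 11.0) and 12.3 in bone (1.16 to 57.6), with overlapping ranges for each. These ratios use raw counts, so they do not depend on the scaling within a tissue, and no test was run on them.

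The genes most like each member were found by Pearson r of log2 CPM over all libraries of a tissue, among genes of at least 1 CPM on average. The search covered 12490 genes over 15 tendon libraries and 13923 genes over 14 bone libraries. An r picked as the highest of so many can be high by chance, which was not tested. Ppargc1a in tendon was most like Hk2, the hexokinase of working muscle (r = 0.94 over 15 libraries), and Retreg1 (0.92). Nmrk2 was most like Tead4 and Cavin4 (0.94 each), and Slc25a48 was most like Celsr3 (0.96) and Irak2 (0.95). Esrra was most like Oxnad1 and Sdhc, a subunit of succinate dehydrogenase (0.96 each), and Cpt1b like Acadvl and Acadm, acyl-CoA dehydrogenases of fat oxidation (0.93 each). Ppargc1b had no close neighbour (Rtn4ip1 0.70 and Mpdz 0.69), Pdk4 was most like Adat1 (0.84) and Olfr77 (0.83), and Ucp3 like Adat1 (0.89).

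Among themselves in tendon the genes made 3 loose pairs or groups by the same measure. Pdk4 and Ucp3 had r = 0.92, Esrra and Cpt1b 0.82, and Slc25a48 had 0.82 with Ppargc1a and 0.84 with Nmrk2. Ppargc1a and Nmrk2 had a lower r of 0.64. Ppargc1a and Esrra had r = -0.05 in tendon. In bone the most alike were Mtln (0.94) and Gatd3a (0.93) for Ppargc1a, Ankrd10 (0.81) and Rcc1l (0.77) for Ppargc1b, Usp20 (0.90) and Sbk3 (0.88) for Esrra, and Lmod3 and Ankrd1 (0.98 each) for Nmrk2. For Pdk4 they were Nedd4l (0.95) and Asph (0.94), for Ucp3 Usp2 and Ptpn3 (0.97 each), for Cpt1b Mettl22 and Aldoa (0.99 each), and for Slc25a48 Cblb (0.79) and Klf3 (0.78). All these points share libraries, groups, depth and muscle content, and r is given as a description. Differences between groups, such as that of stimulated tendons at 12 days, enter r and were not taken out.

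Genes around the members were read from 7 lists. Of 22 signals upstream of Ppargc1a, such as AMP kinase, calcineurin and CREB coactivator genes, 1 rose in stimulated tendons at 5 days: Hdac4, whose product represses MEF2 factors. It had 60.0, 63.0 and 60.5 CPM in stimulated tendons and 39.8, 41.0 and 38.2 CPM in unstimulated tendons (log2 fold change 0.63 ± 0.09, adjusted p = 0.0231). At 12 days 0 of the 22 passed edgeR's test (4 at an unadjusted p under 0.05, and 3 by DESeq2). The median of the list was -0.07 at 5 days and -0.01 at 12 days, against 0.00 and 0.01 over all genes. Of 21 measured genes of the exercise response and myokines, Nr4a1 fell at 5 days and Hk2 rose at 12 days. Nr4a1, a nuclear receptor gene induced early by exercise in muscle, had 35.4, 36.1 and 32.2 CPM in stimulated tendons and 116, 108 and 59.6 CPM in unstimulated tendons at 5 days (-1.46 ± 0.23, adjusted p = 0.0456). Hk2 had 993, 672 and 705 CPM in stimulated tendons and 273, 300.0 and 316 CPM in unstimulated tendons at 12 days (1.41 ± 0.14, adjusted p = 0.00132).

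The other 5 lists, which leave out the 8 genes described here (so Slc25a48 is not among the carriers nor Nmrk2 among the NAD genes), had no call between stimulated and unstimulated tendons. Of 21 nuclear regulators of mitochondrial genes, such as Tfam, Nrf1 and Ppara, 0 passed edgeR's test in tendon at 5 or at 12 days (3 at an unadjusted p under 0.05 at each day, and 0 by DESeq2). Of 24 genes of fatty acid uptake and oxidation 0 passed (1 at an unadjusted p under 0.05 at each day, and 0 by DESeq2), with a median log2 fold change of 0.07 at 5 days and 0.01 at 12 days. Of 12 genes of pyruvate dehydrogenase and its kinases 0 passed (0 and 1 at an unadjusted p under 0.05, and 0 by DESeq2). Of 15 measured gene IDs of NAD synthesis and salvage, in which Nnt has 2, 0 passed (0 at an unadjusted p under 0.05 and 0 by DESeq2 at each day). Of 16 measured uncoupling proteins and inner membrane carriers 0 passed (2 and 1 at an unadjusted p under 0.05, and 0 by DESeq2). Between stimulated and unstimulated bones 0 genes of these 7 lists passed edgeR's test at either day (at most 5 of a list at an unadjusted p under 0.05, and 0 by DESeq2). Against naive tendons, stimulated tendons at 12 days had 3 nuclear regulators higher and 3 lower, 1 and 1 of the fatty acid genes, 1 and 1 of the pyruvate dehydrogenase genes, 2 and 1 of the NAD genes and 4 and 1 of the carriers. In that comparison 24.4% of all 17108 genes tested were called, 2026 higher and 2143 lower, so these counts do not single out the lists.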

How the data were processed

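Gene counts of 30 libraries of mouse tendon and bone were used. Per the labels' protocols, poly-A libraries were made from total RNA. Per the submitters' processing notes, cutadapt 2.3, FastQC 0.11.8, MultiQC 1.7, STAR 2.7.8a and RSEM 1.3.3 were used with GRCm38. The role of each, the annotation and the strandedness were not given in the sources used here. What the authors deposited were expected counts, estimates from RSEM that share ambiguous reads among genes. Of the values, 0 were not whole, so rounding changed none.

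The members and lists were chosen with earlier results of these data known. The main test was edgeR's quasi-likelihood test (version 4.0.16, R 4.3.3) with robust dispersions and TMM factors, after filterByExpr (minimum count 10, minimum total 15). Each tissue's libraries were fitted together (all 29 for the difference between tissues). P-values were Benjamini-Hochberg adjusted over all genes, with a threshold of 0.05. Every adjusted p of a fold change is edgeR's unless DESeq2 (1.42.0) is named. SE is the log2 fold change over the square root of F. Depth was 19.3 M to 44.6 M counts, and the upper limit given for a count of 0 covers counting error only. All 8 members are described in each of 15 comparisons. Of each pathway list up to 4 genes past the threshold are named, and per member the 2 most alike genes in each tissue, of which 1 is not reported here. Coordinates come from GENCODE M21, which held 99.5% of the gene IDs. Alternatives were DESeq2, its size factors, no count filter, replicate number as a block, muscle level as covariate or scale, only the libraries compared, the near-identical pair kept apart and each library left out. The fit was tested on simulated data.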

Additional observations from a re-analysis of the deposited data

How the results depend on the processing

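The count of 3 members called in tendon at 12 days, stimulated against unstimulated, was 1 with no count filter, 0 with the replicate block, 0 with the muscle covariate, 1 scaled to muscle fibre counts and 0 on only the libraries compared; leaving out 1 library gave 0 to 3. Against naive the 2 members at 5 days stimulated became 1 with no count filter, 1 with the muscle covariate and 1 scaled to muscle. Without 1 library they became 0 to 1. The 4 at 12 days became 3 to 5, not always the same members. Scaled to muscle, Esrra (-0.59) and Cpt1b (-0.66) were called lower there, and Ucp3 lost its call. DESeq2 called 3 members in stimulated tendon at 5 days against naive (with Ucp3), 1 in tendon at 5 days between stimulated and unstimulated, 1 in unstimulated tendon at 12 days against naive, 1 in stimulated bone at 12 days against naive and 1 between tissues. Scaled to muscle, unstimulated tendon at 12 days against naive had 2, Nmrk2 at -0.98 and Esrra. Without 1 library, 0 to 1 members were called in either bone group at 12 days against naive and between tissues, and 0 in the other comparisons.

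Counts of all genes moved more. Tendon at 5 days, stimulated against unstimulated (10): DESeq2 134, no filter 17, replicate block 6, scaled to muscle 0, only the libraries compared 0, without 1 library 0 to 20. Tendon at 12 days (59): DESeq2 381, muscle covariate 4, scaled to muscle 13, only the libraries compared 0, without 1 library 2 to 672. Bone at 5 days (0): DESeq2 49, no filter 1, pair kept apart 3, without 1 library 0 to 14. Bone at 12 days (7): DESeq2 size factors 1, DESeq2 427, no filter 32, replicate block with the pair apart 3, muscle covariate 1, pair kept apart 11, only the libraries compared 0, without 1 library 0 to 7. Against naive, stimulated tendon at 5 days (392) gave DESeq2 1090, replicate block 743, scaled to muscle 33 and without 1 library 7 to 336; at 12 days (4169) scaled to muscle 11200, only the libraries compared 2730, without 1 library 1649 to 4723. Unstimulated tendon at 5 days (6) gave DESeq2 110, muscle covariate 3, scaled to muscle 0, only the libraries compared 1, without 1 library 1 to 297; at 12 days (3209) scaled to muscle 12191, only the libraries compared 4983, without 1 library 85 to 2609. Stimulated bone at 5 days (43) gave DESeq2 688, replicate block 90, muscle covariate 26, pair kept apart 159, without 1 library 1 to 82; at 12 days (856) DESeq2 1950, muscle covariate 186, pair kept apart 1294, only the libraries compared 5, without 1 library 108 to 1307. Unstimulated bone at 5 days (82) gave DESeq2 529, replicate block 159, muscle covariate 1, pair kept apart 257, only the libraries compared 0, without 1 library 1 to 245; at 12 days (4110) 1951 to 4062 without 1 library. The change between days in tendon (0) was 12 by DESeq2 and 0 to 11 without 1 library, and in bone (0) 60 by DESeq2, 1 with no filter, 1 with the pair apart and 0 to 3 without 1 library. Between tissues (44) DESeq2 gave 225, the fit with the replicate block 71, only the libraries compared 3, and 9 to 356 without 1 library. The cause of these moves was not tested.

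Scaled to muscle fibre counts, 3 values changed sign and passed the threshold: Esrra at 12 days against naive, -0.59 in stimulated and -0.51 in unstimulated tendons, and Cpt1b at -0.66 in stimulated tendons. That scaling moved the median of all genes to -0.69 and -0.74 there, a larger shift than any of these values. Replicate numbers were not shown to pair samples: same-numbered deviations correlated at -0.0891, 0.1425 and 0.1773 in tendon at 5 days, -0.0179, 0.0549 and 0.2956 at 12 days, -0.0749, 0.0145 and -0.0512 in bone at 5 days and -0.095, -0.16 and 0.1658 at 12 days, with 1 of 3 best with its own number in each. With the replicate block the tendon 12-day log2 fold changes were 1.53, 1.78 and 2.25 for Ppargc1a, Nmrk2 and Slc25a48 (adjusted p = 0.0704, 0.0783 and 0.0613, so none was called). Slc25a48 rests on 6 to 94 counts a library in tendon and 1 to 20 in bone.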
